A study of Mus musculus with 12 samples.

Results

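The genes described here are 8 members of cytokine receptor systems, read in natural killer (NK) cells with and without the microRNA miR-142. They are Il6st, which encodes gp130, Il6ra, Il7r, Il4ra, Il21r, Il10ra, Il10rb and the signalling gene Stat3. The 8 were chosen by name as receptors, or the main transcription factor, of the gp130, IL-7 and related cytokine systems, out of 19938 genes that the arrays could name. Each was read by 1 probe set, and all 8 passed the filter on low signal. The values are log2 signals, so a difference of 1.00 is a 2-fold difference in signal. Levels are compared between groups for the same gene and never between genes, since probe sets differ in brightness.

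The cells came from C57BL6 mice of 7 to 10 weeks of age and were sorted as CD3- NK1.1+ NK cells from spleen or bone marrow. The mice were labelled miR142 WT (wild type) or miR142 KO (knockout) and were matched for age and sex. No label describes the knockout allele or a driver, so which other cells of the mice lacked miR-142 is not stated. There were 4 groups of 3 arrays, 1 group for each genotype in each tissue. Within a group the arrays are labelled as biological replicates without naming animals, so the p-values measure the spread between these samples. The probe set for Mir142 averaged 7.18 in wild type spleen against 4.38 in knockout spleen, and 7.50 against 4.55 in bone marrow, with no overlap between genotypes.

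A cytokine receptor of this class has no enzyme of its own: binding of the ligand brings receptor chains together, the JAK kinases attached to them become active, and STAT proteins are phosphorylated and move to the nucleus. gp130 is the shared chain for IL-6, IL-11, LIF, oncostatin M and IL-27, and signals mainly through STAT3. IL-7, IL-4 and IL-21 each bind a private chain that pairs with the common gamma chain, while IL-10 binds a pair formed by its own chain and a chain shared with related cytokines. In the NK lineage, IL-7 receptor marks early progenitors and a subset of mature cells, and IL-21 affects maturation and effector function.

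miR-142 is made from a hairpin gene on mouse chromosome 11 and is abundant in blood cells. A microRNA pairs with its target mRNAs mainly through its seed, bases 2 to 8 from the 5′ end. The 2 mature strands of the gene named in the genotype labels are shown with the seed in capitals, because every comparison is between those genotypes; the strands themselves were not measured here. They come from RefSeq (GRCm38.p6), at chr11:87756903-87756925 for the 3p strand and chr11:87756867-87756887 for the 5p strand, both on the + strand.
mmu-miR-142a-3p: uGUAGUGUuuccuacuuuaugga
mmu-miR-142a-5p: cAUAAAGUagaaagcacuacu
The mRNA of gp130 has been described as a target of the 3p strand in myeloid cells. Target sites were not analysed here.

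The promoters of the 3 receptor genes that changed over both tissues are shown for their different make-up, as the 150 bases before the annotated start (RefSeq, GRCm38.p6), read in the direction of the gene. Capitals mark a match to a STAT motif (TTCNNNGAA) or a FOXO motif (GTAAACA), each searched on both strands. Il21r lies at chr7:125603279-125603428 (+ strand), Il6st at chr13:112463920-112464069 (+ strand) and Il7r at chr15:9529877-9530026 (- strand).
Il21r: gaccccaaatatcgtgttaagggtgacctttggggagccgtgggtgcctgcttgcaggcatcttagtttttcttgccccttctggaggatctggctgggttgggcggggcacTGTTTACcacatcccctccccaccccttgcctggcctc
Il6st: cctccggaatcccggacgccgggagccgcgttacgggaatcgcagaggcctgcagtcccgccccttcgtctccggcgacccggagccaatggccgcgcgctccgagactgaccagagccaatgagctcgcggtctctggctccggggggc
Il7r: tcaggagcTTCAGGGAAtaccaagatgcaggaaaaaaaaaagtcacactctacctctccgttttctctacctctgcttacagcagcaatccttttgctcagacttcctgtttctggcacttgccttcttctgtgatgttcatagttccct
The Il21r match reads as the FOXO motif on the opposite strand and spans 38 to 32 bases before the start, and the Il7r match to the STAT motif ends 134 bases before it. Over windows from 250 bases before to 50 bases after the start, 8.3% of 32851 promoters held the STAT motif and 3.65% the FOXO motif. In the same windows the Il6st promoter held 33 CpG and 68.3% G and C, the Il21r promoter 7 CpG and 56.0%, and the Il7r promoter 1 CpG and 45.7%, where the median promoter holds 7.0 CpG. The Il6st promoter is thus dense in CpG and the Il7r promoter nearly free of it. Of the 8 genes, 6 had an entry in the promoter table, and of these Il6st, Il4ra, Il6ra and Stat3 matched neither motif.

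Without miR-142, Il21r was higher in both tissues, Il6st was higher in spleen, and Il7r was lower when the tissues were combined, while the fitted differences of Stat3 and Il6ra were at most 0.13 in either tissue. In spleen, 2 of the 8 genes were higher at an adjusted p under 0.05 and 0 lower, where 9.11% of all 11963 genes tested were called. In bone marrow 1 of 8 was called, Il21r, against 8.65% of all genes. Over both tissues 3 of 8 were called, 2 higher and 1 lower, against 19.1% of all genes. Every adjusted p given here is from limma with Benjamini-Hochberg adjustment over all genes tested. The median difference of the 8 genes was 0.05 in each tissue alone and 0.06 for the tissues combined, beside -0.01 for all genes in each case. The median size of the difference, ignoring its sign, was 0.44 for the 8 genes in spleen against 0.15 for all genes, and 0.16 against 0.19 in bone marrow.

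The genotype groups did not overlap in spleen for 5 of the 8 genes, which were Il6st, Il4ra, Il21r, Il10ra and Il10rb, while 28.0% of all genes did not overlap there. In bone marrow the groups did not overlap for Il6st, Il6ra and Il21r, against 34.2% of all genes. A count of 3 of 8 is near that background. The arrays carry numbers that form 2 separate runs, and the model carried the run as a term. From knockout bone marrow only the first run has arrays, while wild type bone marrow has array 1 there and arrays 2 and 3 in the second run, which also holds knockout spleen 1 and 2 and wild type spleen 3. For this reason a fitted difference can depart from the plain difference of group means, most of all in bone marrow. The RNA is that of a sorted population, in which fewer cells of a type and less RNA per cell cannot be told apart.

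**Figure D1:**
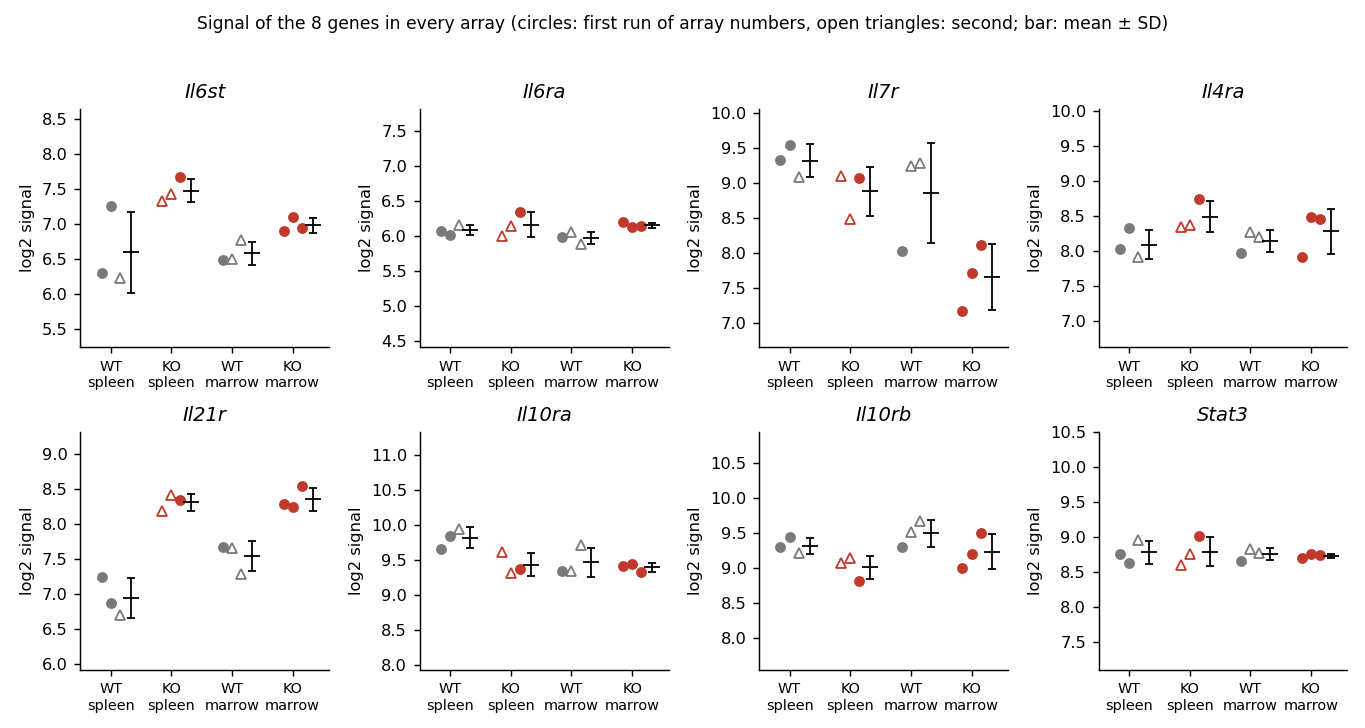
Log2 signal of each of the 8 genes in the 12 arrays, by group, with filled circles for the first run of array numbers, open triangles for the second, and bars for mean ± SD (n = 3 arrays). Each panel spans the same number of log2 units. The knockout arrays of Il21r lie between 8.18 and 8.54, above every wild type array, and the knockout bone marrow arrays of Il7r reach from 7.17 to 8.11.

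Il6st, the shared signalling chain of the IL-6 family, was higher in knockout spleen. Its signal in wild type spleen arrays 1, 2 and 3 was 6.31, 7.26 and 6.23, and in knockout spleen 7.34, 7.44 and 7.67. All 3 knockout arrays were above all 3 wild type arrays, although wild type spleen 2 stood near the knockout arrays. The fitted difference was 0.96 ± 0.22 (SE), or 1.95-fold, with a 95% interval of 0.48 to 1.45 and an adjusted p of 0.0183. Within the first run the knockout was 0.89 higher and within the second 1.16 higher. This call was lost without wild type spleen 1 (0.80, adjusted p 0.0556), wild type spleen 3 (0.74, adjusted p 0.18) or knockout spleen 3 (0.93, adjusted p 0.111). It was also lost when only the spleen arrays were fitted and the run term was dropped with that (0.89, adjusted p 0.0566). Without wild type spleen 2 the difference was 1.23.

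In bone marrow the Il6st signal was 6.49, 6.50 and 6.78 in wild type and 6.91, 7.11 and 6.95 in knockout arrays. The groups did not overlap, and the fitted difference did not pass. The fitted difference was 0.25 ± 0.25 with an interval of -0.29 to 0.79 and an adjusted p of 0.573, and the plain difference within the first run, which holds 1 wild type array, was 0.50. The difference between the tissue effects, -0.71 ± 0.35 with an adjusted p of 0.577, did not pass. Over both tissues Il6st was higher by 0.61 ± 0.15, 1.52-fold, with an adjusted p of 0.0166. That call was lost without wild type spleen 1 (0.49, adjusted p 0.051) and without wild type bone marrow 1 (0.48, adjusted p 0.0862).

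Il6ra, the private IL-6 chain that docks with gp130, had similar signals in all groups. Its arrays ranged from 6.02 to 6.16 in wild type spleen, up to 6.35 in knockout spleen, with a median of 6.15, 5.89 to 6.06 in wild type bone marrow and 6.13 to 6.20 in knockout bone marrow. The bone marrow groups lay apart by a narrow margin and the spleen groups overlapped. The differences were 0.10 ± 0.11 in spleen (interval -0.14 to 0.34, adjusted p 0.667) and 0.13 ± 0.12 in bone marrow (interval -0.13 to 0.40, adjusted p 0.535). The intervals leave room for a difference of 0.40 in bone marrow and no more than 0.34 in spleen.

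Il21r, the private chain of the IL-21 receptor, had the largest difference of the 8 genes in spleen. Its signal in wild type spleen was 7.25, 6.88 and 6.70, and in knockout spleen 8.18, 8.42 and 8.34. Every knockout array lay far above every wild type array, with little spread among the knockouts. The difference was 1.44 ± 0.15, or 2.71-fold, with an interval of 1.11 to 1.76 and an adjusted p of 0.000103. Within the runs it was 1.27 and 1.60. The call held in all 23 alternative settings, with differences from 1.33 to 1.55.

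In bone marrow, wild type arrays had an Il21r signal of 7.67, 7.66 and 7.29 and knockout arrays 8.28, 8.24 and 8.54. Again no arrays overlapped. The difference was 0.68 ± 0.17, 1.60-fold, with an interval of 0.32 to 1.04 and an adjusted p of 0.0267, and the plain difference within the first run was also 0.68. Over both tissues it was 1.06 ± 0.10, 2.08-fold, with an adjusted p of 2.35e-05. The call in bone marrow was lost without wild type bone marrow 1 (adjusted p 0.163), wild type bone marrow 3 (0.052), knockout bone marrow 3 (0.0791), knockout spleen 3 (0.0598), or both wild type bone marrow arrays of the second run (0.0989). The difference stayed between 0.59 and 0.85 throughout.

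The Il21r effect was smaller in bone marrow than in spleen by 0.76 ± 0.24, with an unadjusted p of 0.00832 that became 0.38 after adjustment, so the difference between tissues did not pass. Among all genes 0.00836% passed that test, and 0 of the 8 did in limma, with 2 of the 8 (Il21r and Il10ra) at an unadjusted p under 0.05. The levels show where the effects part: wild type bone marrow already stood above wild type spleen, by 0.66 ± 0.15 (1.58-fold, adjusted p 0.0282), while the knockout groups of both tissues were at the same height, with a difference of -0.09 ± 0.17 and an interval of -0.46 to 0.27. Il21r was the only gene of the 8 that was called between wild type tissues, where 5.37% of all genes were called, and the only gene whose wild type tissues did not overlap, against 31.6% of all genes. The order of its levels was knockout bone marrow and knockout spleen, which overlapped, then wild type bone marrow, then wild type spleen, each apart from the next. The tissue call was lost when only the 2 wild type groups were fitted, without the run term (0.59, adjusted p 0.0721), and under renewed quantile normalization (0.57, adjusted p 0.0714). It was also lost without wild type spleen 2 or 3 or wild type bone marrow 1 or 2. In those fits the difference was at least 0.55 and the adjusted p at most 0.17. Without both wild type bone marrow arrays of the second run the difference was 0.66.

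Il7r, the chain that binds IL-7 and also serves the TSLP receptor, was the only gene of the 8 that passed as lower, over both tissues. In spleen the signal was 9.33, 9.55 and 9.08 in wild type and 9.10, 8.48 and 9.07 in knockout arrays. The groups overlapped narrowly, since knockout spleen 1 stood just above wild type spleen 3. The difference of -0.50 ± 0.34 (interval -1.24 to 0.23) had an adjusted p of 0.439. In bone marrow, wild type arrays gave 8.03, 9.25 and 9.28 and knockout arrays 7.17, 7.71 and 8.11. Wild type bone marrow 1 lay below the highest knockout array and apart from the other wild type arrays, which belong to the second run.

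The fitted Il7r difference in bone marrow was -1.06 ± 0.37, with an interval of -1.88 to -0.24 and an adjusted p of 0.107. It was -0.37 within the first run, where the only wild type array is array 1, and no knockout array was in the second. Without wild type bone marrow 1 it was -1.92 (adjusted p 0.0119), but then no run held bone marrow arrays of both genotypes. Leaving out the run term gave -1.19 (adjusted p 0.026), and the run as a random block -1.23 (adjusted p 0.0162). The size of the Il7r difference in bone marrow therefore turned on which wild type arrays and runs were compared. Over both tissues Il7r was lower by 0.78 on the log2 scale (-0.78 ± 0.23, 1.72-fold, interval -1.29 to -0.27, adjusted p 0.0357). This call held in 12 of 22 alternatives and was lost without any 1 of 8 arrays (arrays 1 and 2 of the spleen groups of either genotype, arrays 2 and 3 of wild type bone marrow, and arrays 1 and 2 of knockout bone marrow). Over the single arrays left out, the difference lay between -1.13 and -0.63, with an adjusted p of at most 0.105 where it was lost, and a trended, robust variance gave 0.0656. Without both wild type bone marrow arrays of the second run it was -0.35, with an adjusted p of 0.315.

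Between tissues of the knockout, 0 of the 8 genes passed in limma, where 0.318% of all genes were called, and 2 had an unadjusted p under 0.05. Those were the 2 genes whose knockout tissues did not overlap, Il6st and Il7r, against 16.3% of all genes. Il7r was at -1.09 ± 0.37 in knockout bone marrow relative to knockout spleen (adjusted p 0.364), and Il6st at -0.65 ± 0.25 (adjusted p 0.438). Both stood lower in bone marrow in each of the 3 arrays. In the wild type the same tissue differences were -0.53 ± 0.34 for Il7r and 0.06 ± 0.22 for Il6st, and neither passed.

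Il4ra, the chain that binds IL-4 and also takes part in the IL-13 receptor, lies next to Il21r on chromosome 7. In spleen its signal was 8.04, 8.33 and 7.92 in wild type and 8.35, 8.38 and 8.75 in knockout arrays. The groups did not overlap, but wild type spleen 2 was within 0.02 of the lowest knockout array. The difference of 0.44 ± 0.18 (interval 0.05 to 0.84) had an adjusted p of 0.171. In bone marrow the groups overlapped, at 7.97 to 8.27 in wild type and 7.92 to 8.49 in knockout arrays, with a difference of 0.06 ± 0.20 (interval -0.38 to 0.50). Of these adjacent receptor genes, Il21r was called in each tissue and Il4ra in neither; the difference between them was not tested.

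The IL-10 receptor genes had lower signals in knockout spleen without passing the test. Il10ra, the private IL-10 chain, gave 9.66, 9.85 and 9.95 in wild type spleen and 9.62, 9.32 and 9.37 in knockout spleen. The groups did not overlap, with knockout spleen 1 just below the lowest wild type array. The difference was -0.43 ± 0.13 with an interval of -0.71 to -0.16 and an adjusted p of 0.0518, at the edge of the threshold, and 5 of 23 alternatives called it. In bone marrow it was 0.04 ± 0.14 (adjusted p 0.899). Both bone marrow groups, at 9.35 to 9.71 and 9.33 to 9.45, lay near the knockout spleen level. The difference between the tissue effects, 0.47 ± 0.20, had an adjusted p of 0.516.

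Il10rb, the chain shared by the receptors for IL-10 and its relatives, gave 9.30, 9.44 and 9.21 in wild type spleen and 9.07, 9.14 and 8.82 in knockout spleen. Again all knockout arrays lay below all wild type arrays. The difference was -0.35 ± 0.15 in spleen (adjusted p 0.18), -0.18 ± 0.16 in bone marrow (adjusted p 0.55) and -0.27 ± 0.10 over both tissues (adjusted p 0.0953). The gene lies on chromosome 16 between Ifnar2 and Ifnar1, which encode the chains of the type I interferon receptor. Those neighbours had the opposite direction, with differences over both tissues of 0.29 ± 0.08 for Ifnar2 (adjusted p 0.0268) and 0.45 ± 0.08 for Ifnar1 (adjusted p 0.00166).

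Stat3, the main transcription factor downstream of gp130, the IL-21 receptor and the IL-10 receptor, had nearly the same signal in all groups. It was 8.76, 8.63 and 8.96 in wild type spleen and 8.60, 8.76 and 9.01 in knockout spleen. In bone marrow it was 8.66, 8.83 and 8.77 in wild type and 8.70, 8.76 and 8.74 in knockout arrays. The genotypes overlapped in both tissues. The difference over both tissues was -0.00 ± 0.09, with an interval of -0.20 to 0.19, so a difference in mRNA beyond 0.20 in size lies outside that interval.

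**Figure D2:**
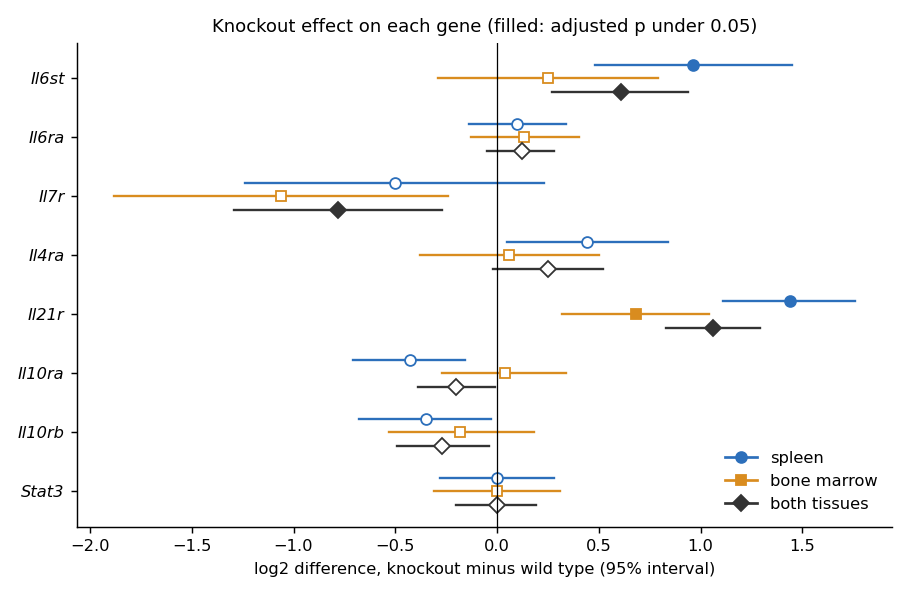
Knockout minus wild type for each gene on the log2 scale with its 95% interval, in spleen (circles), bone marrow (squares) and over both tissues (diamonds); filled symbols have an adjusted p under 0.05. Il21r is filled in each comparison, Il6st in spleen and over both tissues, and Il7r over both tissues, at -0.78.

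For the 3 genes called over both tissues, the genes with the most similar pattern over the 12 arrays were sought among all genes tested, as a description in which arrays share group and run. For Il21r they were Spred1 and Ywhae, each at a Pearson r of 0.97. Spred1, an inhibitor of RAS signalling, was higher by 1.50 ± 0.11 in knockout spleen and 0.91 ± 0.13 in knockout bone marrow, and Ywhae, a 14-3-3 protein, by 1.10 ± 0.09 and 0.53 ± 0.10. As for Il21r, the value of both was larger in spleen than in bone marrow. Both were chosen for their likeness to Il21r over these arrays, so that this match is no separate observation. The pattern most opposed was that of Ostf1 (r of -0.98). For Il6st they were Tmcc3 (0.94) and H2-Aa (0.93), a chain of MHC class II, with Galt the most opposed (-0.89). For Il7r they were Cog3 (0.94) and Antxr2 (0.93), with Nrgn the most opposed (-0.89). Antxr2 differed by -0.26 ± 0.17 in spleen and -0.54 ± 0.19 in bone marrow, and Nrgn by 0.96 ± 0.22 and 1.16 ± 0.24.

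The other genes of these pathways were listed by role, 118 in all, of which 109 were measured and 80 passed the filter. The lists were written with earlier results of these data known, so the shares below describe them and are no test of the pathways. Of the 80, 6 were higher and 5 lower in knockout spleen (13.8%), 6 higher and 7 lower in knockout bone marrow (16.2%), and 14 higher and 12 lower over both tissues (32.5%), beside the 9.11%, 8.65% and 19.1% of all genes. Each of the 3 counts of higher genes includes Il20ra, which passed the filter through its knockout levels. The values that follow are differences over both tissues, knockout minus wild type, unless a tissue is named. The listed genes that were not measured were not analysed here.

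Among the partner chains of gp130, 1 of 2 tested was higher and 0 lower. This was Il27ra, the private chain of the IL-27 receptor, at 0.35 ± 0.08 (adjusted p 0.0125), with 6.97 ± 0.14 (SD, n = 3) in wild type and 7.37 ± 0.05 in knockout spleen, and 7.01 ± 0.09 and 7.29 ± 0.18 in bone marrow. Without wild type bone marrow 1 it had an adjusted p of 0.0619. Lifr, Osmr and Il31ra, the other partner chains measured, were below the filter. Of the gp130 ligands, 0 of 3 tested were called, and Il6, Il11, Lif, Ctf1 and Ebi3 were below the filter.

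Among the receptors of the gamma chain, IL-13 and TSLP systems, 1 of 5 tested was called, near the 19.1% of all genes. This was Il2rb, the shared IL-2 and IL-15 receptor chain on which NK cells depend. It was higher by 0.22 ± 0.07 (adjusted p 0.0364), from 12.07 ± 0.09 to 12.30 ± 0.04 in spleen and from 12.07 ± 0.09 to 12.28 ± 0.03 in bone marrow. That small difference was called in 10 of 22 alternatives, with a range of 0.19 to 0.24, and lost without any array other than wild type spleen 3, knockout spleen 1 and wild type bone marrow 3. Il2ra (0.51 ± 0.28), Il15ra (0.21 ± 0.11), Il9r (0.06 ± 0.12) and Crlf2 (0.08 ± 0.09) did not pass. Neither of the 2 gamma chain ligands tested passed, and Il7 and Il21, the ligands of Il7r and Il21r, were below the filter.

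Among the relatives of the IL-10 receptor, the class 2 cytokine receptors, 3 of 6 tested were higher and 0 lower. Il20ra, a chain of the IL-20 receptor family, was among the 3, with a signal of 4.94 ± 0.61 in wild type and 7.19 ± 0.12 in knockout spleen, and 5.28 ± 0.53 and 7.81 ± 0.16 in bone marrow. The wild type means are under the filter value of 5.49, so the gene passed the filter through its knockout levels. No fold or p is drawn from it, and its call adds no support to the count of 3. Ifnar1 and Ifnar2 were the others. The Ifnar2 call held in 15 of 22 alternatives and was lost without 6 single arrays, at 0.23 to 0.28 (arrays 2 and 3 of wild type spleen and of knockout bone marrow, and array 1 of knockout spleen and of wild type bone marrow). All 4 IL-10 family ligands measured were below the filter.

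Of the kinases and STAT factors other than Stat3, 3 of 8 tested were lower and 0 higher. Jak1, the kinase attached to gp130 and to the IL-7, IL-21 and IL-10 private chains, was at -0.46 ± 0.07 (adjusted p 0.000418), from 12.01 ± 0.03 to 11.57 ± 0.02 in spleen and from 11.78 ± 0.10 to 11.29 ± 0.06 in bone marrow. Its arrays were separate in each tissue. Tyk2, a kinase that serves the IL-10 and interferon receptors, was at -0.34 ± 0.08 (adjusted p 0.0105), and Stat4, which transmits IL-12 signals, at -0.34 ± 0.07 (adjusted p 0.00751). Jak2 (-0.20 ± 0.08), Stat5a (-0.01 ± 0.09) and Stat5b (-0.20 ± 0.10) did not pass.

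Of the inhibitors of JAK and STAT signalling, 4 of 16 tested were higher and 1 lower. Cish, an inhibitor induced by STAT5, was higher by 1.56 ± 0.17 (adjusted p 4.63e-05), from 6.61 ± 0.50 to 7.94 ± 0.15 in spleen and from 6.72 ± 0.18 to 8.65 ± 0.52 in bone marrow. Ptpn6, the phosphatase SHP-1, was higher by 1.04 ± 0.08 (adjusted p 5.2e-06), from 8.82 ± 0.09 to 10.02 ± 0.08 in spleen and from arrays at 8.90 to 9.13 to arrays at 9.68 to 10.05 in bone marrow. For both genes the genotypes lay apart in each tissue. Socs2, another STAT5-induced inhibitor, was higher by 0.47 ± 0.09 (adjusted p 0.00303). Socs3, which binds gp130 itself and limits STAT3, was lower by 0.51 on the log2 scale (adjusted p 0.0136). Its difference was -0.06 ± 0.18 in spleen (adjusted p 0.905) and -0.97 ± 0.20 in bone marrow (adjusted p 0.0118), and the difference between tissues had an adjusted p of 0.382. Socs1 was at -0.03 ± 0.11.

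Of the genes known to respond to STAT3, 3 of 16 tested were higher and 4 lower, and these counts ranged from 1 to 3 and from 2 to 5 over the alternatives. The median difference of the list was 0.02 in spleen, with 1 higher and 1 lower, and -0.32 in bone marrow, with 1 higher and 3 lower, beside -0.01 for all genes in each tissue. Myc, a regulator of growth, was higher by 0.75 ± 0.08 (adjusted p 5.63e-05). Its signal rose from 9.46 ± 0.26 to 10.72 ± 0.09 in spleen, whereas in bone marrow it was 10.74 ± 0.04 and 10.93 ± 0.13, and the difference between tissues had an unadjusted p of 0.000541 and an adjusted p of 0.19. Pim1, a survival kinase induced by cytokines, was at -0.91 ± 0.13 (adjusted p 0.000401), and Batf, a partner of AP-1 factors, at -0.45 ± 0.08 (adjusted p 0.00268). Socs3 belongs to this list too.

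Among the regulators of Il7r, 2 of 11 tested were lower and 0 higher, which is near the 19.1% of all genes called over both tissues. Foxo1, which activates Il7r in lymphocytes, was at -0.31 ± 0.08 (adjusted p 0.013), and Foxp1, which competes with it there, at -0.43 ± 0.08 (adjusted p 0.00367). Foxo1 stood at 8.47 ± 0.04 and 8.18 ± 0.08 in wild type and knockout spleen, and at 8.38 ± 0.11 and 8.04 ± 0.14 in bone marrow. Gfi1 (0.16 ± 0.06), Ets1 (-0.15 ± 0.06) and Gabpa (-0.11 ± 0.09) did not pass. Of the other lymphocyte genes known to be activated by FOXO1, 2 of 3 tested were lower. S1pr1, the receptor that guides exit from tissues, was at -2.33 ± 0.12 (adjusted p 1.13e-07), from 9.58 ± 0.16 to 7.70 ± 0.21 in spleen and from 9.47 ± 0.30 to 6.61 ± 0.25 in bone marrow. Klf2, the factor that maintains S1pr1, was at -0.97 ± 0.10 (adjusted p 2.42e-05).

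Of the survival genes that IL-7 is known to control, 2 of 7 tested were higher and 1 lower. Bcl2l11, the death-promoting factor BIM, was higher by 0.69 ± 0.09 (adjusted p 0.000186), from 8.61 ± 0.15 to 9.33 ± 0.15 in spleen and from 8.81 ± 0.07 to 9.42 ± 0.22 in bone marrow. Bad, another death-promoting member, was higher by 0.32 ± 0.09 (adjusted p 0.0232), and Bcl2l1, the protective BCL-XL, was at -0.27 ± 0.08 (adjusted p 0.0329). Bcl2 (-0.11 ± 0.10) and Mcl1 (-0.18 ± 0.06) did not pass. The Bcl2l1 call held in 12 of 22 alternatives, and 8 of the single arrays left out ended it, wild type bone marrow 1 with the smallest difference left (-0.21, adjusted p 0.151). That of Bad held in 18, and was lost without wild type spleen 2 (0.26), knockout bone marrow 3 (0.30) or wild type bone marrow 1 (0.31). Of the proteases that cut IL-6 receptor and related proteins from the surface, 0 of 3 tested were called, with Adam17 at -0.01 ± 0.07. Without both wild type bone marrow arrays of the second run the calls of Tyk2, Socs3, Foxp1, Foxo1, Bad, Ifnar2 and Il2rb were lost, with adjusted p from 0.0525 to 0.139.

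**Figure D3:**
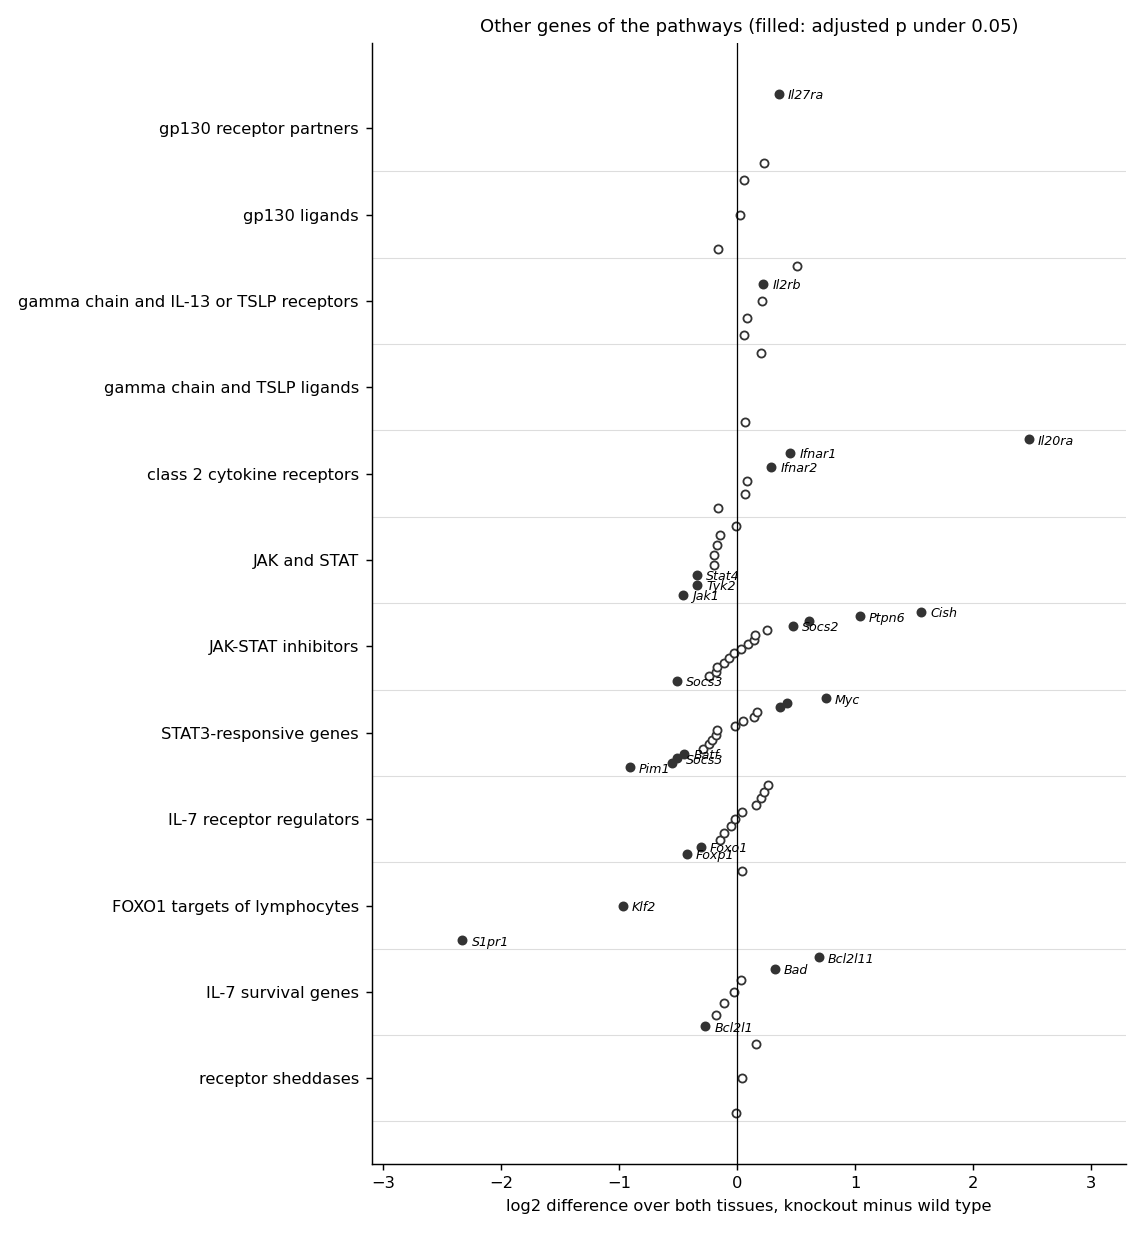
Difference over both tissues, knockout minus wild type on the log2 scale, of every tested gene of the other pathway lists, with 1 point per gene and filled points for an adjusted p under 0.05. S1pr1 lies farthest left, at -2.33, and the point farthest right is Il20ra, whose wild type level is under the filter; labels mark genes named by rule, and filled points without a label are further called genes.

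Marker lists of the cell types that a sorted population could hold were read on the same arrays. The 12 NK markers averaged 10.89 to 11.32 in every array, and over both tissues 1 was higher (Gzma) and 1 lower (Itga2). Markers of tissue-resident lymphocytes and ILC1 were higher in the knockout for 8 of 9 genes in each tissue. Of all genes tested, 9.11% were called in the spleen comparison and 8.65% in that of bone marrow. Gpr34, 1 of the 8 higher markers, passed the filter through its knockout levels (7.26 and 7.72, against 4.23 and 4.18 in the wild type). The mean of the list lay at 6.90 to 7.20 in wild type and 9.30 to 9.38 in knockout spleen, and at 7.47 to 7.51 and 9.47 to 9.81 in bone marrow. These values move with genotype as Il21r does. The list was chosen with earlier results of these data known, so this likeness is a description and no test. The part of these cells in the results was not tested.

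Some dendritic cell markers were higher in the knockout, as Il6st was in spleen. Of 7 tested, 5 were higher in knockout spleen (H2-Aa, H2-Ab1, Cd74, Itgax and Tcf4) and 2 in knockout bone marrow (Itgax and Tcf4). Itgax was higher by 1.36 ± 0.11 in spleen and 1.46 ± 0.12 in bone marrow, and Tcf4 by 0.64 ± 0.12 and 0.67 ± 0.13, where Il6st had 0.96 and 0.25. Every wild type array already had Itgax at 9.90 to 10.44, above the filter value of 5.49. With that level in sorted NK cells, Itgax cannot be read as a marker of dendritic cells alone. Zbtb46 (-0.07 ± 0.11 and 0.25 ± 0.12) and Irf8 (0.04 ± 0.18 and -0.47 ± 0.20) did not pass in either tissue. H2-Aa, an antigen-presenting protein of dendritic and B cells, gave 6.02, 7.31 and 5.99 in wild type spleen and 8.49, 7.94 and 8.69 in knockout spleen. Wild type spleen 2 was the highest wild type spleen array, as for Il6st, but H2-Aa is named above for its likeness to Il6st over these arrays, so that this match is no separate observation. The whole list of 12 averaged 6.24 to 6.52 in wild type and 6.89 to 6.97 in knockout spleen, and 6.25 to 6.43 and 6.75 to 6.77 in bone marrow. The defining markers Siglech, Flt3, Xcr1, Clec9a and Cd209a were below the filter over all arrays. The part of these cells in the Il6st result was not tested.

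Some T cell markers were lower in knockout bone marrow, where the Il7r difference was also below 0. Most T cells carry Il7r, and the sort was on CD3- cells. The mean of the T cell list over 11 genes was 6.94 to 7.09 in wild type and 6.42 to 6.63 in knockout bone marrow, and 6.57 to 6.68 and 6.36 to 6.70 in spleen. Of 8 tested, 4 were lower in knockout bone marrow (Cd3d, Cd3e, Cd3g and Cd28). Cd8a (-0.07 ± 0.13), Cd5 (-0.32 ± 0.17), Lat (0.02 ± 0.14) and Bcl11b (0.22 ± 0.17) did not pass there, and Cd4, Cd8b1 and Themis were below the filter. In knockout spleen 2 of the 8 were lower and 0 higher. These were Cd3d at -1.05 ± 0.23 (adjusted p 0.0142) and Cd28 at -0.92 ± 0.14 (adjusted p 0.0019). Il7r was at -0.50 ± 0.34 in spleen and did not pass. In wild type bone marrow arrays 1, 2 and 3 the list stood at 7.08, 7.09 and 6.94, and Il7r at 8.03, 9.25 and 9.28. Between wild type tissues Cd3d, Cd3e and Cd3g were higher in bone marrow by 1.46 to 1.95, where Il7r had a difference of -0.53. Granulocyte markers were higher in wild type bone marrow (6.83 to 7.00) than in knockout bone marrow (5.66 to 6.27). Of 6 tested, 4 were lower in knockout bone marrow and 0 higher, with a median difference of -1.69. In spleen they averaged 5.05 to 5.62 in wild type and 5.51 to 6.05 in knockout arrays. There 1 of 6 was higher in the knockout, S100a8 (1.81 ± 0.37), and 0 lower, with a median difference of 0.88. B cell markers gave 0 of 6 in limma in each genotype comparison, and averaged 5.04 to 5.43 in all arrays. The part of any of these cells in the Il7r result was not tested.

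Of the remaining lists, 2 of 3 tested markers of other innate lymphoid cells were higher over both tissues, with Klrg1 called in each. Klrg1 averaged 9.29 in wild type spleen and 7.70 in wild type bone marrow, above the filter value of 5.49. With that level in sorted NK cells, it cannot be read as a marker of other innate lymphoid cells alone. Il17rb and Il23r of that list were below the filter. The monocyte and macrophage list had 2 of 5 lower over both tissues (Ccr2 and Ms4a6c), while Csf1r, Adgre1, Fcgr1, C1qb and Vcam1 were below the filter. Progenitor markers had 2 of 6 higher and 2 lower, and erythroid and platelet markers 0 of 4. Over both tissues 19.1% of all genes were called, and the content of these cells was not tested.

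**Figure D4:**
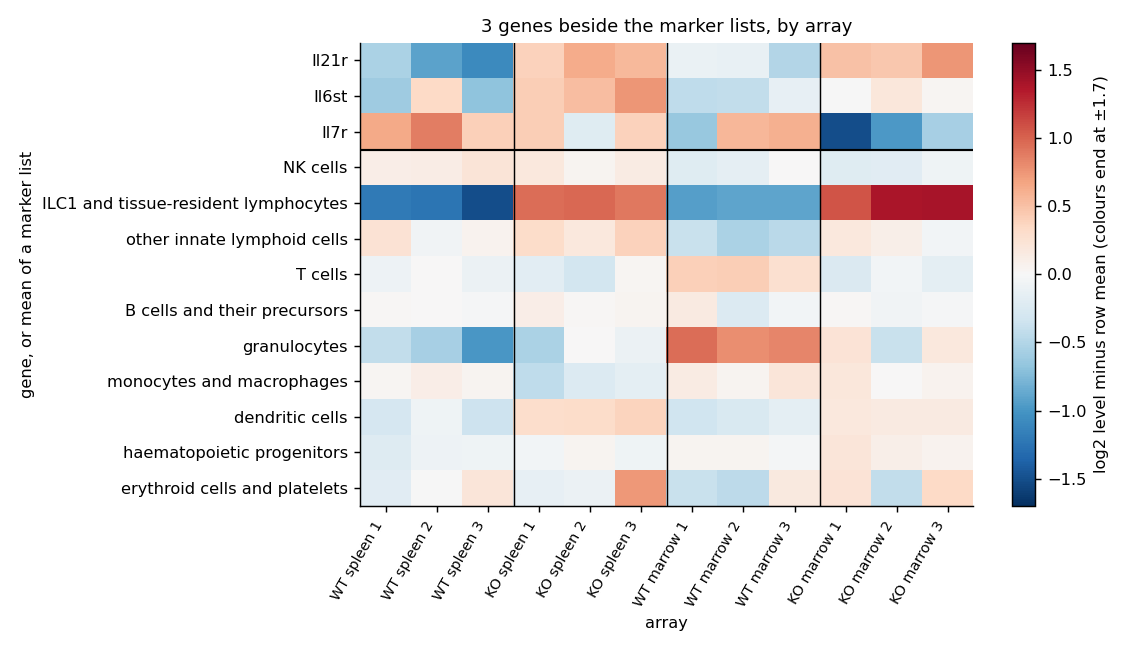
Il21r, Il6st and Il7r (top) and the mean of each marker list (below) in each of the 12 arrays, as log2 level minus the mean of the row, with red above and blue below it. The residency list separates the genotypes as Il21r does, and NK markers vary little, between 10.89 and 11.32.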

How the data were processed

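The authors deposited log2 signals per probe set, made with Affymetrix Expression Console and RMA per the submitters' processing notes; RMA includes a background correction, quantile normalization and a summary of probes. Software versions, annotation and build were not given in the sources used here. RNA was amplified with a NuGEN kit from picogram to nanogram amounts, per the labels' protocols, which can compress or bias signals of low genes. Array medians lay between 5.75 and 5.87, and arrays of a group correlated at 0.968 to 0.986. The precision is limited by the number of arrays.

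Of 35556 probe sets, the platform annotation gave 1 symbol for 21789, several for 1621 and none for 12146. The probe set with the highest mean represented each of 19938 genes, and 11963 with a mean above the 40th percentile (5.49) were tested. A model with 4 group means and the run of array numbers (7 and 5 arrays) was fitted with limma 3.58.1 in R 4.3.3 (residual degrees of freedom 7, prior 4.74) and tested on simulated data. The run's own effect passed for 0 genes, with 546 at an unadjusted p under 0.05 against 598 by chance. The 6 comparisons were adjusted by Benjamini-Hochberg, each over all genes tested, and called at 0.05.

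Genes other than the 8 were named by rule: in each pathway list, up to 4 called over both tissues with the smallest p; for each called member, the 2 most similar and the most opposed by Pearson r, passing over predicted genes and olfactory or vomeronasal receptors. Uncalled pathway genes were chosen after their values were seen. The 8 members and the lists were chosen with earlier results of these data known. Alternatives covered scaling, the filter, run, pairing, probe sets, variance moderation and each array left out.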

Additional observations from a re-analysis of the deposited data

How the results depend on the processing

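With 3 arrays per group, the calls among the 8 genes moved with single arrays. Of 1082 recomputed differences of the 8 genes, 1003 were counted as keeping direction and side of the threshold. Differences that round to 0, such as those of Stat3 between genotypes, could not count as a change of sign. A further 28 lost the call, 12 gained it, 39 uncalled differences changed sign, and 0 called differences reversed. Most of the 1082 were of uncalled differences, which had no call to lose, so 28 is a larger part of those that were called. Fitting only the groups compared, which also dropped the run term, gave 1 called gene in spleen (2 as reported) and 0 between wild type tissues (1 as reported). Omitting the run term, or taking the run as a random block, gave 2 in bone marrow (1 as reported). Without both wild type bone marrow arrays of the second run, chosen after seeing the data, 0 were called in bone marrow and 0 between wild type tissues. Leaving out single arrays gave 1 to 3 in spleen, 0 to 1 in bone marrow, 1 to 4 over both tissues, where without wild type spleen 1 only Il21r passed, and 0 to 1 between wild type tissues. The cause was not tested.

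Whether equal replicate numbers mark the same animal is not stated. After group means were taken out, 18 same-numbered pairs of arrays had correlations of -0.02 to 0.24, with 6 over 0.1. Differently numbered pairs were not read beside them, so these values cannot decide whether the arrays are paired. A replicate block gave 2 called genes in spleen, as reported.

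Among the 22 other pathway genes named, all kept their sign and 13 kept the call in all 22 alternatives. Counts over all genes moved more. In bone marrow 1035 genes became 1590 without the run term, 1830 with it as a random block, 487 without both second-run arrays and 372 to 1002 without single arrays. Without both, 2290 over both tissues became 1434. Single arrays gave 543 to 1083 in spleen (1090). Between wild type tissues 643 became 83 to 704 without single arrays and 87 without both. Between knockout tissues 38 became 87 without the run term, 119 with the random block, 16 without both and 1 to 38 without single arrays, and the 1 gene that differed between tissue effects became 0 to 12 over all settings.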
